A study of Mus musculus with 12 samples.

Results

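Oncogenic H-RasV12 was compared with green fluorescent protein (GFP) in mouse embryonic fibroblasts that lack the scaffold protein KSR1. The comparison used 6 of the 12 arrays of the study, the 3 titled for H-RasV12 alone and the 3 titled for GFP alone, and covered the 12422 probe sets that are not array controls. All 4 lines of the study had the genotype KSR1 -/- on a DBA background strain and all carried GFP, so the GFP line is a vector-bearing control and not an untreated one. In the other lines KSR1 had been put back, with or without H-RasV12, and they serve here as the matching comparison in cells with the scaffold. The labels give 1 cell line per condition, measured in triplicate, and do not state separate cultures or how the genes were introduced. All p-values accordingly rest on how far arrays of 1 line scatter, which may be technical scatter, and say nothing of how separately derived lines vary.

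Ras is a small GTPase that relays signals from growth factor receptors, and the V12 mutant stays in its active, GTP-bound form. Active Ras binds Raf, and Raf, MEK and ERK then form a kinase cascade that ends in the transcription of immediate early genes and of phosphatases that dampen the cascade. KSR1 holds Raf, MEK and ERK together. The comparison asks what H-RasV12 does to transcript levels in fibroblasts when that scaffold is missing.

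Levels are the deposited MAS5 signals, a linear probe set brightness, and differences are log2 differences of H-RasV12 minus GFP ± the standard error from limma, with 3 arrays a line. Testing was limited to probe sets with a signal above 181.4, the median over the whole data set, on 3 or more arrays of the 12, which kept 6897 probe sets for 5288 named genes. Those with an adjusted p below 0.05 are termed called. Arrays of the GFP line correlated with each other at r between 0.92 and 0.97, arrays of the H-RasV12 line at 0.96, and arrays of different lines at 0.92 to 0.96, so the lines were about as alike as their replicates. GFP replicate 1 stood apart in its controls, with a beta-actin 3′ control of 7981 against 17240 to 23387 on the other 5 arrays. Genes named below whose call changed without it are given both ways. In each of the 4 lines replicate 1 also had the lowest 18S, beta-actin 3′ and Gapdh 3′ control signals, and replicate 2 the highest 18S signal. Fibroblast markers passed the filter for 11 of 13 genes, among them Col1a1, with a mean signal of 18526 in the GFP line and 17857 in the H-RasV12 line, whereas the probe sets of Vim and Thy1 lay below it on this array. Of markers of other cell types, 3 of 11 macrophage genes passed the filter (Cd14 at a mean of 1126 and 1200 in the GFP and H-RasV12 lines, Laptm5 at 228 and 279, and Cd68 at 177 in both), 2 of 9 endothelial genes (Eng at 419 and 428, Pecam1 at 168 and 182) and 3 of 10 epithelial genes (Cdh1 at 580 and 525, Krt19 at 118 and 90.2, Cldn3 at 95.9 and 64.1). Neuron or glia genes passed for 3 of 9 (Tubb3 at 3220 and 3412, Map2 at 139 and 191, Gap43 at 107 and 104). Lymphocyte genes passed for 3 of 7 (Cd4 at 203 and 174, Ms4a1 at 143 and 146, Cd79a at 127 and 84.0). Of macrophage genes below the filter, Csf1r had means of 237 and 152 and Fcgr1 of 173 and 110. The highest of the 6 arrays read 541 for Csf1r. Ptprc, Cdh5 and Epcam stayed at or below 27.4 on all 6 arrays.

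The Ksr1 probe sets were checked first. Probe set 92765_s_at read 143.7, 21.1 and 37.5 on the GFP arrays and 20.2, 32.2 and 14.2 on the H-RasV12 arrays, against 933.4, 1605 and 207.3 on the arrays of the KSR1 line and 301.2, 261.9 and 140.9 on those with KSR1 and H-RasV12. The lines without added KSR1 were thus low, although GFP replicate 1 overlapped the lowest array with added KSR1. The other Ksr1 probe set, 92764_at, read 180 to 324 on the 6 arrays and 216 to 366 on the arrays with added KSR1, and did not separate the lines. The level of the H-RasV12 transgene was not analysed here.

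H-RasV12 left most transcripts near their GFP level. In limma, 5 of the 6897 probe sets were called lower (0.0725%) and 0 were called higher (0%). At an unadjusted p under 0.05 the counts were 177 lower (2.57%) and 234 higher (3.39%). The median absolute log2 difference was 0.16 and the median standard error 0.24, so the typical difference was smaller than its error. The central 90% of log2 differences lay between -0.44 and 0.52, and the median was 0.01. The 95% interval of the difference lay within 2-fold both ways for 5664 probe sets (82.1%) and within 4-fold for 6778 (98.3%). For most expressed transcripts the arrays thus bound the difference to under 2-fold, while the median interval reached 0.51 on the log2 scale to either side and left smaller differences unresolved.

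Larger differences were few, and they leaned downward where signals were high. At least 2-fold lower were 64 probe sets (0.928%) and at least 2-fold higher were 53 (0.768%). In 361 probe sets all 3 H-RasV12 arrays lay below all 3 GFP arrays (5.23%), and in 464 they lay above (6.73%). Both criteria together were met by 48 lower (0.696%) and 30 higher (0.435%) probe sets. Among the third of probe sets with the highest mean signal, 18 of these were lower and 2 were higher, against 18 and 19 in the third with the lowest signal. The abundant transcripts that separated the lines by 2-fold were therefore nearly all lower with H-RasV12.

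**Figure D1:**
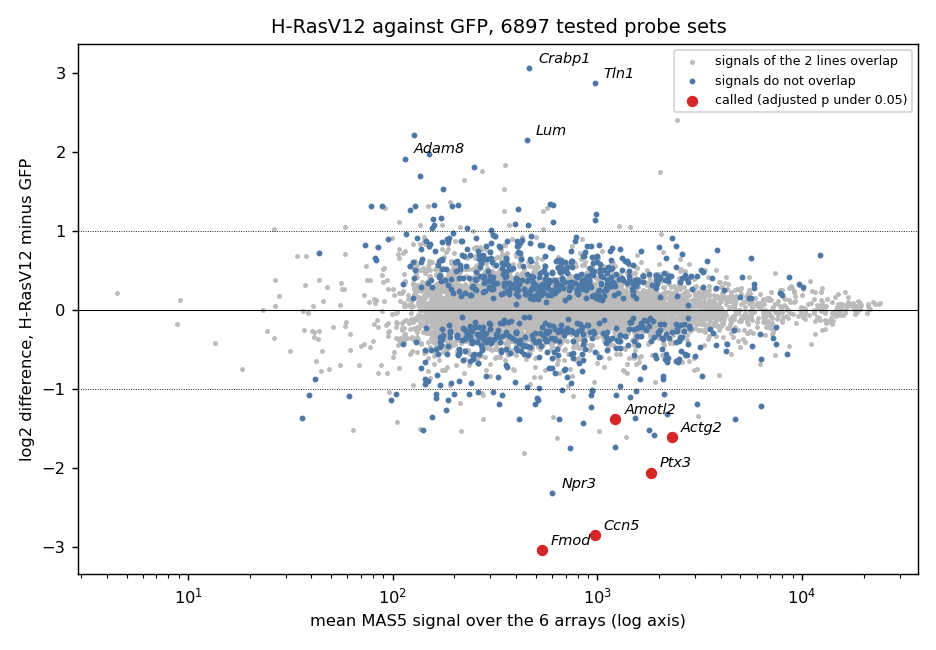
Log2 difference between the H-RasV12 and GFP lines (vertical) against the mean MAS5 signal over the 6 arrays (horizontal, log axis) for each of the 6897 tested probe sets. Grey points have overlapping signals, blue points do not overlap, and the 5 red points, all below 0, passed an adjusted p under 0.05, with dotted lines at 2-fold.

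The 5 transcripts that fell with H-RasV12 encode secreted or matrix proteins, a muscle actin and an angiomotin protein. Ccn5, which encodes a secreted CCN protein of the matrix, read 1289, 1736 and 2142 on the GFP arrays and 301, 187 and 174 on the H-RasV12 arrays. It fell by 2.85 ± 0.27 on the log2 scale (adjusted p = 0.000306, limma) and was the only one of the 5 called under all 22 alternative settings. Fmod, fibromodulin, a small leucine-rich proteoglycan that binds collagen fibrils, read 781, 997 and 1079 and then 247, 35.9 and 79.8. All 3 H-RasV12 arrays lay far below the GFP arrays, with replicate 1 the highest of them, and Fmod fell by 3.04 ± 0.47 (adjusted p = 0.0228, limma).

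Ptx3, a long pentraxin that fibroblasts secrete as a soluble innate immune recognition protein, read 1536, 3190 and 4211 on the GFP arrays and 883, 526 and 566 on the H-RasV12 arrays. It fell by 2.06 ± 0.31 (adjusted p = 0.0228, limma), with GFP replicate 1 closest to the H-RasV12 line. Actg2, the gamma actin of smooth muscle, read 2401, 3599 and 4563 and then 1011, 974 and 1359, and fell by 1.61 ± 0.23 (adjusted p = 0.0228, limma). Its probe set, 93102_f_at, is of a type that can share probes with near-identical family members, so the signals of different actins cannot be told apart here. Amotl2, an angiomotin-like protein that restrains the transcriptional co-activator YAP, read 1636, 1774 and 1873 and then 964, 625 and 482, and fell by 1.38 ± 0.22 (adjusted p = 0.0246, limma).

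Except for Ccn5, the calls depended on single arrays. When H-RasV12 replicate 2 or either of GFP replicates 2 and 3 was dropped, 1 probe set stayed called lower, which was Ccn5, and dropping H-RasV12 replicate 3 left Ccn5 and Actg2. Dropping GFP replicate 1, the array with the low actin control, raised the count to 20 lower and 3 higher. The adjusted p over the alternatives ran from 0.00162 to 0.163 for Fmod, from 0.000261 to 0.161 for Ptx3, from 0.00213 to 0.16 for Actg2 and from 0.00223 to 0.196 for Amotl2, and all 4 were lower under every one that tested them. As their arrays do not overlap, leaving out an array could not change that sign.

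**Figure D2:**
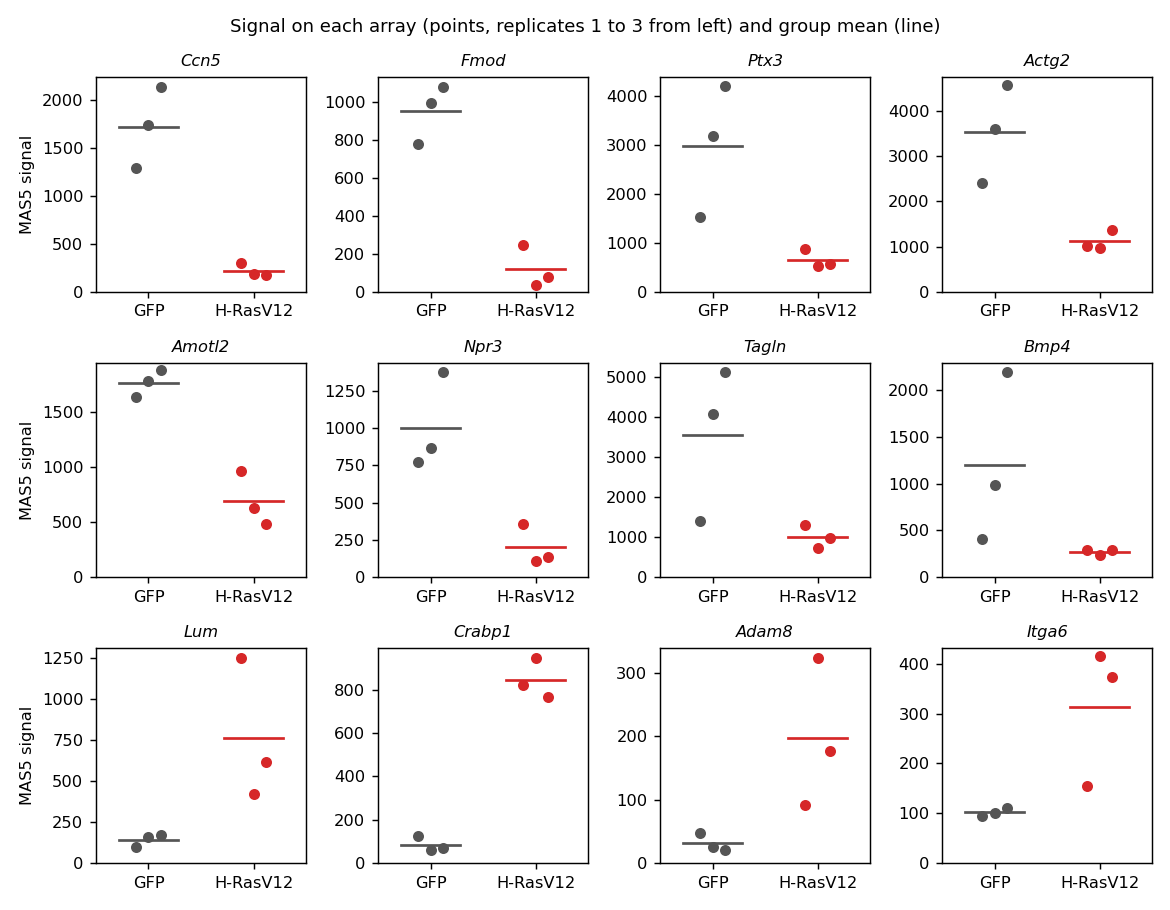
MAS5 signal (vertical, linear from 0) of 12 genes on each array, with points for replicates 1 to 3 from left to right and a line at the mean of 3 arrays, for the GFP line (grey) and the H-RasV12 line (red). The groups do not overlap in any of the 12 panels. Ccn5, Fmod, Ptx3, Actg2 and Amotl2 passed the adjusted test and the other 7 did not.

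The 15 genes furthest below GFP, among genes whose arrays did not overlap, had a median of mean signals of 1722 in the GFP line and 412 in the H-RasV12 line, where 1 of them had all 3 arrays below the filter level of 181.4. Besides the 5 genes that passed, they were Npr3, Bmp4, Tmem45a, Tagln, Anxa8, Mfap5, U90926, Ccn1, Fhl1 and Has2, with adjusted p between 0.0865 and 0.316. Npr3, the clearance receptor of natriuretic peptides, read 770, 864 and 1373 on the GFP arrays and 359, 107 and 136 on the H-RasV12 arrays, a log2 difference of -2.32 ± 0.43 (adjusted p = 0.0865, limma). Its second probe set was also lower, by 1.62 ± 0.45, with overlapping arrays. Has2, a synthase of the matrix polysaccharide hyaluronan, read 927, 420 and 499 and then 242, 253 and 149. In both genes every H-RasV12 array was below every GFP array, without passing the adjusted test.

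Matricellular and proteoglycan genes included Ccn5 and Fmod, lower with H-RasV12, and Lum, which was higher. Of the 30 matricellular proteins and small proteoglycans listed, 18 were tested. Their median log2 difference was -0.58, against 0.02 over all 5288 genes. The arrays of 7 of them lay entirely lower and those of 2 entirely higher, against 5.2% lower and 7.07% higher of all genes. A difference of 2-fold or more was seen in 3 lower and 1 higher, against 53 lower (1%) and 34 higher (0.643%) of all genes, and 2 were called, Ccn5 and Fmod. Without GFP replicate 1, 3 of the 18 were called lower. The lower 7 also held Ccn4, another CCN protein, at 951, 1076 and 888 on the GFP arrays and 414, 458 and 659 on the H-RasV12 arrays (-0.92 ± 0.19, adjusted p = 0.128, limma), and Tnxb, Thbs2, Fbln2 and Sparc at log2 differences from -1.06 to -0.55. Gene lists here and below were chosen with earlier results of these data known, so their shares may follow in part from the choice.

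The proteoglycans did not move as a block. Lum, lumican, is a collagen-binding relative of fibromodulin, and it read 95, 158 and 170 on the GFP arrays but 1252, 423 and 615 on the H-RasV12 arrays, a difference of 2.15 ± 0.37 (adjusted p = 0.0534, limma). It had the lowest adjusted p of any probe set higher with H-RasV12, was called in 5 of 18 alternatives, and had adjusted p between 0.0208 and 0.143 over them. Dcn, decorin, of the same family, read 3223, 2652 and 2546 and then 5842, 3371 and 5467 (0.76 ± 0.33, adjusted p = 0.789, limma). Lum and Dcn were thus high where Fmod was low, and the lines did not overlap in any of these genes.

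Neither the collagens nor the genes that process and crosslink them gave a call. In the processing list 4 of 9 tested genes lay entirely lower (44.4%) and 0 entirely higher, against 5.2% and 7.07% of all genes, with a median of -0.21. Lox, lysyl oxidase, which crosslinks collagen and elastin, read 7103, 9587 and 9515 on the GFP arrays and 5690, 2508 and 3579 on the H-RasV12 arrays (-1.22 ± 0.35, adjusted p = 0.35, limma), and its second probe set did not overlap either (-1.26 ± 0.45). The other 3, P4ha1, Pcolce and Serpinh1, were lower by 0.21 to 0.34 on the log2 scale. Among 27 collagens, laminins and basement membrane genes, 1 lay lower (3.7%) and 2 higher (7.41%), near the shares of all genes, and the median was -0.07. Col6a3, a chain of type VI collagen, read 4865, 5048 and 3328 and then 5754, 7620 and 7387 (0.66 ± 0.22, adjusted p = 0.481, limma).

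Among genes of the contractile cytoskeleton, Actg2 was the call. Serum response factor (SRF) drives many smooth muscle and actin genes, and of 22 tested genes of that list 6 lay entirely lower (27.3%) and 2 entirely higher (9.09%), against 5.2% and 7.07% of all genes. Their median was -0.25, and without GFP replicate 1 the median was the same and 4 were called lower. Tagln, the actin-binding protein transgelin, read 1399, 4092 and 5142 on the GFP arrays and 1315, 738 and 982 on the H-RasV12 arrays (-1.63 ± 0.39, adjusted p = 0.216, limma). Acta2, smooth muscle alpha actin, read 3470, 8063 and 9061 and then 3066, 1542 and 3041 (-1.37 ± 0.35, adjusted p = 0.236, limma). In both genes GFP replicate 1 came close to the H-RasV12 arrays, and without that array the differences were -2.19 for Tagln (adjusted p = 0.00248, limma) and -1.80 for Acta2 (adjusted p = 0.0205, limma), past the threshold. Over all alternatives the adjusted p ran from 0.000993 to 0.824 for Tagln and from 0.0117 to 0.986 for Acta2.

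Myl9, a myosin light chain, was lower by 0.98 ± 0.47 and Csrp1, a LIM protein, by 0.58 ± 0.22, whereas Csrp2, the related LIM protein, read 1609, 1343 and 1403 and then 2845, 2216 and 2588 (0.80 ± 0.31, adjusted p = 0.70, limma). Not every gene of the cytoskeleton list was therefore on the low side, and 6 of 22 had a log2 difference above 0. Skeletal and cardiac muscle markers were measured beside this group. Of 14 genes 7 passed the filter, with a median of -0.09 and 0 called. Of these 2 lay entirely lower (28.6%) and 1 entirely higher (14.3%), against 5.2% and 7.07% of all genes. Their summed signal over the 14 was 2792 to 4162 on the GFP arrays and 2153 to 2317 on the H-RasV12 arrays. The largest single part came from Actc1, cardiac actin, at a mean of 2011 and 866 on a probe set of the shared-family type. Actc1 differed by -1.10 ± 0.27 (adjusted p = 0.236, limma). Without GFP replicate 1 it differed by -1.49 (adjusted p = 0.00523, limma), in a range of 0.00523 to 0.824 over the alternatives. Myog read 228 and 97.9, Ckm 93.9 and 156, Myod1 212 and 242, and Myf5 6.76 and 4.10, and the part of these markers in the result was not tested. In RNA from whole cultures, fewer cells of a type and less RNA per cell cannot be told apart.

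Among genes linked to YAP and its TEAD partners, Amotl2 was the call. Of 12 tested genes 3 lay entirely lower (25%) and 1 entirely higher (8.33%), against 5.2% and 7.07% of all genes, with a median of -0.19. Ccn1, a CCN protein and a widely used YAP target, read 560, 1433 and 1871 on the GFP arrays and 405, 441 and 391 on the H-RasV12 arrays (-1.43 ± 0.35, adjusted p = 0.227, limma). Without GFP replicate 1, its lowest GFP array, Ccn1 passed (-1.93, adjusted p = 0.00311, limma), and over all alternatives its adjusted p ran from 0.00311 to 0.773. Ccn2, its close relative, was lower by 1.35 ± 0.47 with overlapping arrays. Amot, the angiomotin after which Amotl2 is named, went the other way, at 662, 811 and 1105 and then 1685, 1166 and 1490 (0.75 ± 0.24, adjusted p = 0.444, limma), and Ankrd1, another common YAP target, was near the floor in both lines at 25.4 and 27.5.

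Promoter sequences are shown for the 4 of the 15 genes furthest below GFP that hold a match to a TEAD or SRF motif. They come from RefSeq on GRCm38.p6, 250 bases up to the transcription start, read 5′ to 3′ on the gene's strand. The motifs searched on both strands were the TEAD core GGAATG, the AP-1 site TGANTCA, the SRF-binding CArG box and the TATA box TATAAA, and capitals mark matches.
Amotl2, chr9:102717554-102717803, plus strand: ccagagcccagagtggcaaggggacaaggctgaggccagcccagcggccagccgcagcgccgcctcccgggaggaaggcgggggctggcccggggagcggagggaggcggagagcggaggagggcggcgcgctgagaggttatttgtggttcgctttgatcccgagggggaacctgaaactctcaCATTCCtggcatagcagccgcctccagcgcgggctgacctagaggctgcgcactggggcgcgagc
Ccn1, chr3:145649986-145650235, minus strand: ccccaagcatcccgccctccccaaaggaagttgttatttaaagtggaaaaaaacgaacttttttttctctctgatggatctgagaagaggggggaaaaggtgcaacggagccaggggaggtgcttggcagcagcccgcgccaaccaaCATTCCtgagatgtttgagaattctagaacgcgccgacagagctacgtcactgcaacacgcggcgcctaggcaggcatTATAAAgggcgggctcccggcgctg
U90926, chr5:92215409-92215658, minus strand: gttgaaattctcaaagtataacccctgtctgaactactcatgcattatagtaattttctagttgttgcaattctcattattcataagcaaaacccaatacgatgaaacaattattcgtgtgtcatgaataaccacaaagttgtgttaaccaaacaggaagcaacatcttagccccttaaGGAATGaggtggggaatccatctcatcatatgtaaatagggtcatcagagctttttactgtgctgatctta
Fhl1, first of 2 promoters, chrX:56779433-56779682, plus strand: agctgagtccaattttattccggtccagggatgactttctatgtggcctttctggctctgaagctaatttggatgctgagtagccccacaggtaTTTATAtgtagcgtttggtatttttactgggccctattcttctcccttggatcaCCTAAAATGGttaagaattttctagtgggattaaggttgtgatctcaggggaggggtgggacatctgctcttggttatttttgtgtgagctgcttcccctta

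Amotl2 and Ccn1 each held the TEAD core on the reverse strand, as CATTCC, 65 and 103 bases before the start, and Ccn1 also a TATA box 25 bases before it. U90926 held it as GGAATG, 71 bases before the start. Fhl1, a LIM protein of muscle and fibroblasts, held a CArG box 102 bases before its start and a reverse TATA box. Fhl1 read 582, 952 and 1338 on the GFP arrays and 337, 379 and 289 on the H-RasV12 arrays (-1.38 ± 0.30, adjusted p = 0.159, limma), and without GFP replicate 1 it passed (-1.69, adjusted p = 0.0223, limma, in a range of 0.0223 to 0.593 over the alternatives). Of the 15 lower genes 10 had a promoter in the table, and over windows of 300 bases that run past the start 3 held a TEAD core, 1 a CArG box, 2 a TATA box and 0 an AP-1 site. Of the 15 genes furthest above GFP 9 had a promoter, and 2 held a TEAD core, 0 a CArG box, 1 a TATA box and 0 an AP-1 site. Over all 32851 promoters of that length the shares were 14.7%, 1.63%, 13.6% and 7.81% in the same order of motifs. The matches are descriptions of sequence and were not tested for use.

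The TGF-beta and BMP family and its regulators gave 0 calls on all 6 arrays and 2 without GFP replicate 1. These counts use the brightest probe set of each gene, so the 2 calls were different genes, Bmp4 among them. Of 25 tested genes 5 lay entirely lower (20%) and 0 entirely higher, against 5.2% and 7.07% of all genes, with a median of -0.22 and 17 on the low side. Bmp4, a ligand of the family, read 411, 988 and 2193 on the GFP arrays and 296, 235 and 293 on the H-RasV12 arrays (-1.74 ± 0.44, adjusted p = 0.236, limma). The GFP arrays themselves spread widely for this gene, with replicate 1 the lowest. Without that array it passed (-2.34, adjusted p = 0.00813, limma, in a range of 0.00813 to 0.824 over the alternatives), as did its second probe set (-1.57, adjusted p = 0.0223, limma), which overlapped between lines with all arrays. Fstl1, a follistatin-related secreted protein, read 6473, 2835 and 3684 and then 2108, 1613 and 1636 (-1.19 ± 0.27, adjusted p = 0.199, limma). Ltbp2, which belongs to the latent TGF-beta binding proteins, was lower by 1.08 ± 0.33 and Fst, the activin antagonist follistatin, by 0.97 ± 0.41.

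Inflammatory secreted factors gave 1 call, Ptx3, and the sign of their median depended on GFP replicate 1. Of 18 tested chemokine, cytokine and prostaglandin genes 3 lay entirely lower (16.7%) and 1 entirely higher (5.56%), against 5.2% and 7.07% of all genes, and the median was -0.46. Without GFP replicate 1, where 17 genes passed the filter, the median became 0.29, so its sign changed with that array. Saa3, an acute phase protein, read 758 on that array, while the remaining 5 spanned 7.74 to 14.4. Lcn2, the iron-siderophore carrier lipocalin 2, read 342 there and 3.01 to 22.6 on the others, and Cxcl5, a neutrophil chemokine, read 5225 there and 168 to 1346 elsewhere. Csf1, the macrophage growth factor, did not depend on it and read 2450, 3307 and 3399 and then 1987, 1704 and 2228 (-0.62 ± 0.27, adjusted p = 0.823, limma).

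The Ras cascade and its usual transcriptional output showed no call. Among 16 tested genes of the Ras, Raf, MEK and ERK core, 1 lay entirely lower (6.25%) and 2 entirely higher (12.5%), against 5.2% and 7.07% of all genes, with a median of 0.13 and a 95% interval within 2-fold for 15. Nras, a Ras isoform, read 1444, 1897 and 1576 and then 1976, 2211 and 2521 (0.44 ± 0.17, adjusted p = 0.691, limma), but its second probe set had the opposite sign (-0.21). Among 13 ERK targets and feedback regulators 1 lay lower and 1 higher (7.69% each), the median was 0.05, and 10 had a 95% interval within 2-fold. Dusp6, a phosphatase that ERK induces and that inactivates ERK, read 380, 285 and 207 on the GFP arrays and 487, 774 and 384 on the H-RasV12 arrays (0.85 ± 0.59, adjusted p = 1, limma). The groups did not overlap, with 380 and 384 nearly touching.

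Other members of that list had smaller differences. Spry4, a feedback inhibitor, differed by -0.04 ± 0.22 and Phlda1 by 0.15 ± 0.43, and Myc, which lay entirely lower at 532, 534 and 535 and then 366, 491 and 426, by -0.31 ± 0.29. Of 17 immediate early genes 0 lay entirely lower and 1 entirely higher (5.88%), against 5.2% and 7.07% of all genes, and the median was 0.11. Without H-RasV12 replicate 2 the medians were -0.10 for ERK targets and -0.04 for immediate early genes, so neither had a settled sign. The immediate early gene that separated the lines was Egr2, a zinc finger factor induced by growth factors, at 264, 242 and 350 on the GFP arrays and 515, 770 and 602 on the H-RasV12 arrays (1.08 ± 0.27, adjusted p = 0.236, limma). Egr1 was higher by 0.47 ± 0.38 and Fos lower by 0.19 ± 0.50, both with overlapping arrays.

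Most S phase and mitosis genes stayed close to GFP. Of 33 S phase genes 1 lay entirely lower (3.03%) and 4 entirely higher (12.1%), against 5.2% and 7.07% of all genes, with a median of 0.11, and of 35 mitotic genes 1 lay lower and 1 higher with a median of 0.06, and 30 and 35 of them had a 95% interval within 2-fold. E2f8, a repressor among the E2F factors, read 388, 318 and 246 and then 565, 893 and 1121 (1.34 ± 0.34, adjusted p = 0.244, limma), and its second probe set did not overlap either (0.65 ± 0.24). Among 16 p53 targets and cell cycle inhibitors 3 lay lower (18.8%) and 2 higher (12.5%), against 5.2% and 7.07% of all genes. The median was -0.36 with 0 called, and without GFP replicate 1 it was -0.60 with 1 called lower. A 95% interval within 2-fold was found for 6 of these 16. Cdkn1a, the inhibitor p21, read 1109, 2056 and 2052 on the GFP arrays and 949, 742 and 878 on the H-RasV12 arrays (-0.96 ± 0.24, adjusted p = 0.236, limma), and its second probe set was also entirely lower (-0.76 ± 0.24). Without GFP replicate 1 the first passed (-1.25, adjusted p = 0.0223, limma, in a range of 0.0217 to 0.885 over the alternatives). Ccng1 and Phlda3, both p53 targets, were lower by 0.71 ± 0.27 and 0.61 ± 0.27, whereas Sesn1, which is also one, was higher by 0.74 ± 0.23.

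**Figure D3:**
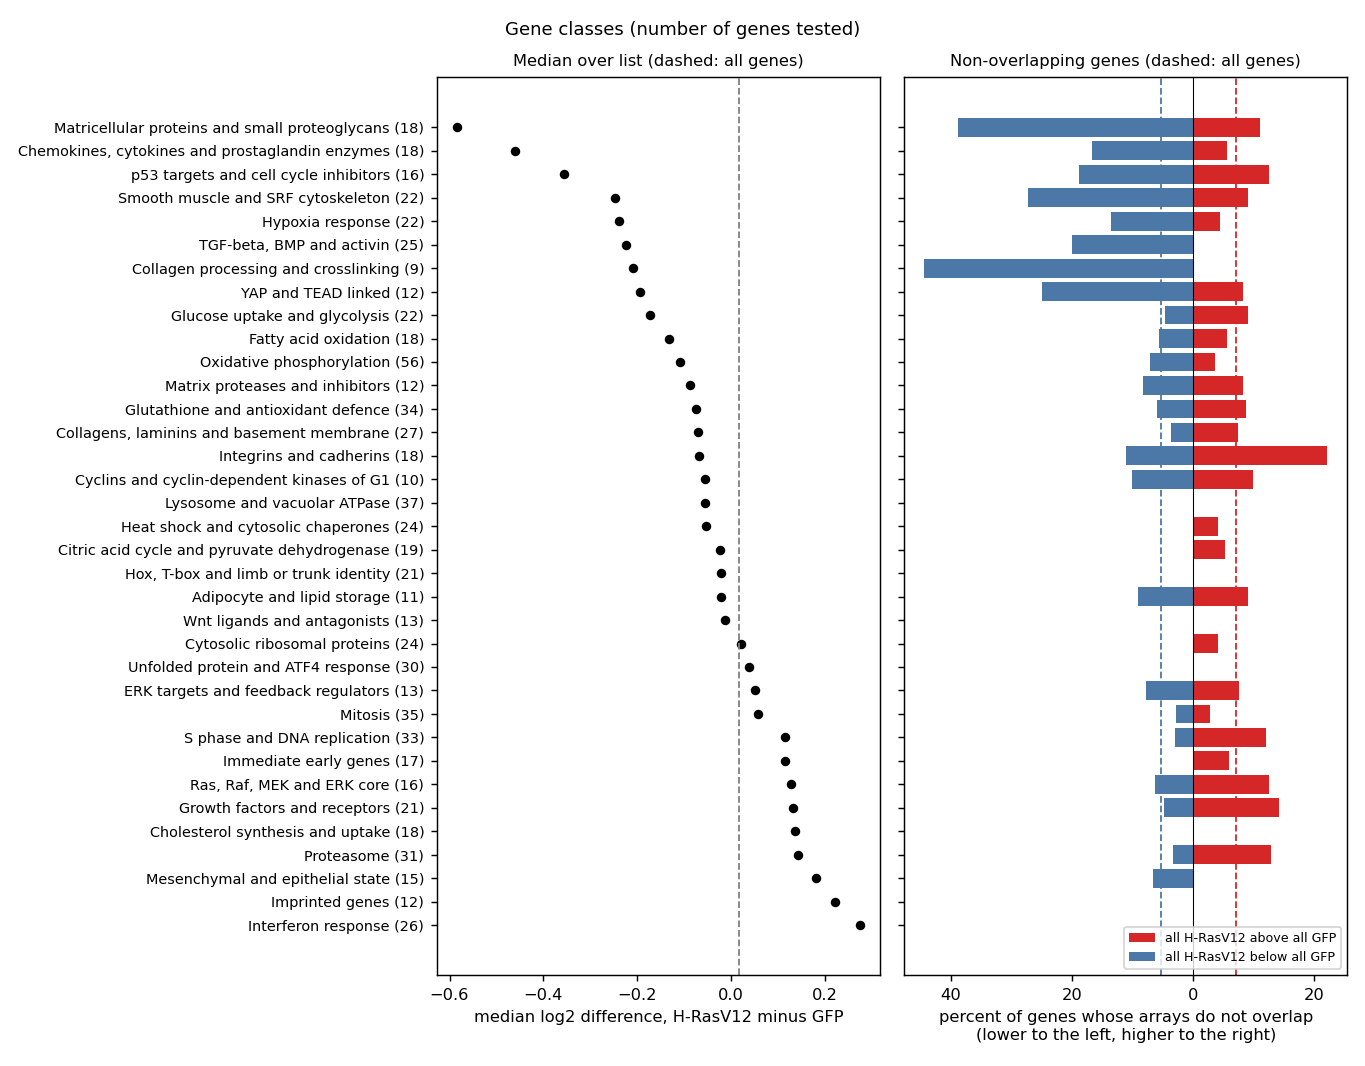
Left, median log2 difference of H-RasV12 minus GFP over the tested genes of each class, with a dashed line at the median of all 5288 genes (0.02). Right, percent of each class whose 3 H-RasV12 arrays lay entirely below (blue, to the left) or above (red, to the right) the 3 GFP arrays, with dashed lines at 5.2% and 7.07% of all genes. Matricellular, cytoskeletal, collagen processing and TGF-beta classes extend to the left of the dashed line. The interferon class has the highest median and no bar. Classes were chosen with earlier results of these data known.

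Adhesion receptors gave 0 calls. Of 18 tested integrins and cadherins 2 lay entirely lower (11.1%) and 4 entirely higher (22.2%), against 5.2% and 7.07% of all genes, and the median was -0.07, or 0.21 without GFP replicate 1. Itga6, the laminin-binding integrin alpha 6, read 94.6, 99.6 and 109.8 on the GFP arrays and 154, 415 and 373 on the H-RasV12 arrays (1.33 ± 0.32, adjusted p = 0.226, limma). Alcam, an immunoglobulin-type adhesion molecule, read 189, 137 and 120 and then 311, 307 and 248 (0.87 ± 0.29), and Cdh2, N-cadherin, was higher by 0.83 ± 0.26. Ncam1, the neural cell adhesion molecule, was on the low side at 1252, 931 and 949 and then 657, 667 and 649 (-0.64 ± 0.21). Snai1, a repressor of E-cadherin, was lower by 0.73 ± 0.33, and E-cadherin itself, Cdh1, read a mean of 580 and 525 with overlapping arrays.

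Growth factor receptors showed small differences of both signs. Of 21 tested growth factors and receptors 1 lay entirely lower (4.76%) and 3 entirely higher (14.3%), against 5.2% and 7.07% of all genes. Fgfr1, a fibroblast growth factor receptor, read 903, 825 and 849 on the GFP arrays and 1400, 1541 and 1564 on the H-RasV12 arrays (0.79 ± 0.24, adjusted p = 0.413, limma), with tight replicates in both lines. The platelet-derived growth factor receptors split, with Pdgfra higher by 0.43 ± 0.22 and Pdgfrb lower by 0.54 ± 0.46. The IGF binding proteins had no gene without overlap among the 4 tested. Igfbp2 read 234, 736 and 1160 and then 267, 100 and 127 (-1.81 ± 0.49, adjusted p = 0.305, limma), with GFP replicate 1 inside the range of the H-RasV12 arrays. Without that array it passed (-2.44, adjusted p = 0.0223, limma).

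The 15 genes furthest above GFP were read from dim probe sets. The median of their mean signals was 84.2 in the GFP line and 266 in the H-RasV12 line. All 3 GFP arrays were below the filter level of 181.4 for 14 of them and all 3 H-RasV12 arrays for 1, and as they were chosen for being far above GFP, low GFP signals follow in part from the choice. None passed, with adjusted p from 0.0534 to 0.709. Crabp1, which binds retinoic acid in the cytosol, had the largest difference. It read 126, 59.0 and 67.6 on the GFP arrays and 825, 948 and 768 on the H-RasV12 arrays, a log2 difference of 3.07 ± 0.76 (adjusted p = 0.236, limma). The groups lay far apart with little spread inside each, and the standard error came from the fit over all 4 lines: with the 6 arrays of these lines alone Crabp1 was called (adjusted p = 0.00214, limma). Over all alternatives its adjusted p ran from 0.00214 to 0.797.

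Adam8, a cell surface metalloprotease, read 47.3, 25.1 and 20.4 on the GFP arrays and 92.0, 324 and 176 on the H-RasV12 arrays (1.92 ± 0.39, adjusted p = 0.122, limma), and Vps37b, a subunit of the ESCRT-I sorting complex, read 70.4, 37.1 and 28.9 and then 138, 375 and 253 (1.97 ± 0.40, adjusted p = 0.122, limma). In both, replicate 1 was the highest of the GFP arrays and the lowest of the H-RasV12 arrays, so the lines were closest on that replicate. Without GFP replicate 1 both passed, Adam8 at 2.13 (adjusted p = 0.0457, limma) and Vps37b at 2.22 (adjusted p = 0.0413, limma), in ranges of 0.00961 to 0.593 and 0.00849 to 0.593 over the alternatives. For several other genes a second probe set disagreed. Tln1, the integrin activator talin, read 139, 148 and 180 and then 369, 3319 and 1665 on probe set 102732_at (2.87 ± 0.54), but differed by only -0.02 and 0.06 on its other 2 probe sets, which read from 1508 to 4807. The difference of Tln1 was thus seen on 1 of 3 probe sets.

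Csnk1d, casein kinase 1 delta, Zfp36l2, an mRNA decay factor, and Arf3, a small GTPase, likewise owed their place to the probe set that was dimmest in the GFP line. Csnk1d was higher by 1.81 ± 0.42 on 97264_r_at and differed by -0.09, -0.01 and 0.40 on the other 3. Zfp36l2 was higher by 2.21 ± 0.70 on 93943_f_at and by 0.27 and 0.40 on brighter probe sets, and Arf3 by 1.33 ± 0.47 on 96587_at and by 0.55 and -0.06 on 2 brighter ones. Col18a1, which encodes the basement membrane collagen XVIII, was higher on all 4 of its probe sets, by 0.32 to 1.32, and did not overlap on 2. St6galnac6, Crip1, Xiap and Gpd1 completed the 15, at log2 differences from 1.32 to 1.69.

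Energy and housekeeping classes lay close to their GFP levels. The 56 tested genes of oxidative phosphorylation had a median of -0.11, with 4 entirely lower (7.14%) and 2 entirely higher (3.57%), against 5.2% and 7.07% of all genes, and 54 had a 95% interval within 2-fold. Glycolytic genes had a median of -0.17 over 22, fatty acid oxidation -0.13 over 18 and the citric acid cycle -0.02 over 19, with 0 called in each. Hk2, a hexokinase, read 457, 534 and 373 on the GFP arrays and 201, 320 and 289 on the H-RasV12 arrays (-0.72 ± 0.22, adjusted p = 0.389, limma), the largest difference without overlap in the glycolysis list. Of 22 hypoxia response genes 3 lay entirely lower (13.6%) and 1 entirely higher (4.55%), with a median of -0.24 and 0 called. Among them Hif1a, the oxygen-regulated factor itself, differed by -0.43 ± 0.18 and Higd1a by -0.61 ± 0.28. Proteasome subunits had 4 of 31 entirely higher (12.9%) and 1 lower (3.23%), with a median of 0.14, for example Psma5 at 1800, 1885 and 1887 and then 2213, 2455 and 2645. Lysosomal genes (37 tested), cholesterol synthesis (18), the unfolded protein and ATF4 response (30), Wnt ligands and antagonists (13), imprinted genes (12) and Hox and other identity factors (21) had 0 genes without overlap, against 5.2% lower and 7.07% higher over all genes. Matrix proteases and their inhibitors (12), G1 cyclins and kinases (10), chaperones (24), glutathione and antioxidant genes (34), adipocyte genes (11), mesenchymal and epithelial state genes (15) and ribosomal proteins (24) had medians from -0.09 to 0.18 and 0 called.

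Interferon-stimulated genes had the highest median of any class, 0.28 over 26 tested genes, and yet 0 of them separated the lines. The 4 with a difference of at least 2-fold were Ifit1, Iigp1, Isg15 and Ifit3, which encode antiviral effectors. Ifit1 read 365, 52.6 and 51.7 on the GFP arrays and 1001, 170 and 479 on the H-RasV12 arrays (1.83 ± 0.62, adjusted p = 0.507, limma). Isg15 read 570, 150 and 258 and then 1355, 593 and 476 (1.29 ± 0.55, adjusted p = 0.789, limma). In both genes GFP replicate 1 reached into the range of the H-RasV12 arrays, and replicate 1 was the highest array of each line.

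That order was common in the class. Replicate 1 was the highest array in both lines for 17 of the 26 interferon genes (65.4%), against 13.2% of all 5288 genes. Without H-RasV12 replicate 1 the median of the class was 0.04, over the 22 genes that then passed the filter. Without GFP replicate 1 it was 0.32 over 21 genes, and without H-RasV12 replicate 2 it was 0.47. Ifitm3 and Ly6e, the members brightest over all 12 arrays, differed by -0.17 ± 0.19 and 0.21 ± 0.20. What set replicate 1 apart was not tested.

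**Figure D4:**
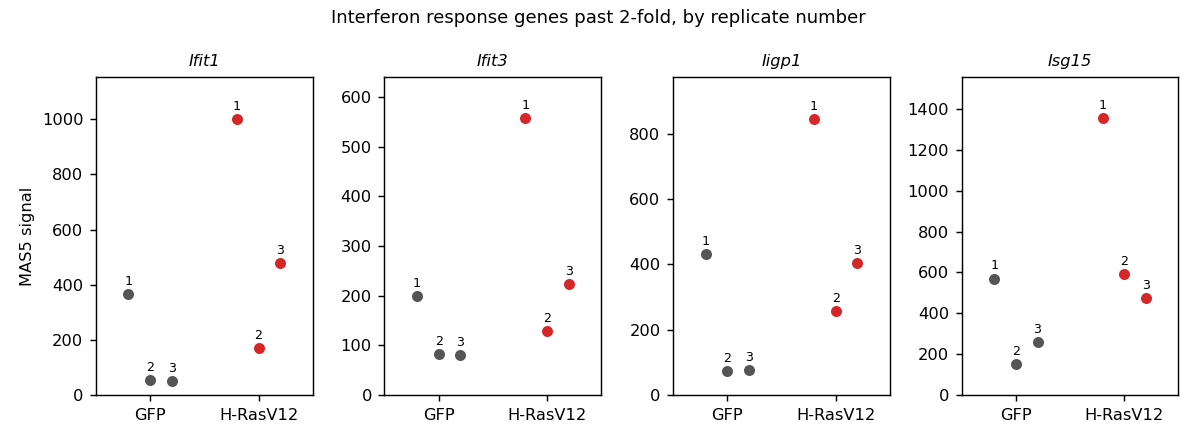
MAS5 signal (vertical, linear from 0) of the 4 interferon response genes past 2-fold on each GFP array (grey) and H-RasV12 array (red), with the replicate number above each point. Replicate 1 is the highest array of its line for every gene, and GFP replicate 1 overlaps the H-RasV12 arrays in every panel.

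With KSR1 present, measured on 6 other arrays, the same oncogene gave more calls and larger differences. There H-RasV12 was called for 1040 probe sets (15.1%), 477 lower (6.92%) and 563 higher (8.16%), and the median absolute log2 difference was 0.31, against 0.16 without KSR1. At least 2-fold lower were 361 probe sets (5.23%) and at least 2-fold higher 340 (4.93%). The difference between the responses, tested as the limma interaction, was called for 531 probe sets (7.7%). Across the 6897 probe sets the responses without and with KSR1 had Pearson's r of -0.05 and Spearman's rho of -0.03, over genes that share the arrays and are not independent.

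The sign of the response with KSR1 is given for the probe sets that separated the lines without it. Of the 48 probe sets that were at least 2-fold lower without overlap, 29 were also lower with H-RasV12 in cells with KSR1 (60.4%), against 55.1% of all probe sets with a negative difference. Of the 30 at least 2-fold higher without overlap, 8 were also higher (26.7%), against 42.4% of all with a positive difference. Of the 15 genes furthest below GFP, 7 were called lower with KSR1, 1 was called higher, and 5 had a called interaction. Of the 15 furthest above, 3 were called lower with KSR1, 0 were called higher, and 9 had a called interaction. Over all 6897 probe sets the shares were 6.92% called lower and 8.16% called higher with KSR1, and 7.7% for the interaction. Both sets of 15 were chosen on the difference without KSR1, which enters the interaction. Called interactions among them thus follow in part from the choice.

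Ptx3 and Amotl2 fell in both settings. With KSR1 present H-RasV12 changed Ptx3 by -2.26 ± 0.31 and Amotl2 by -1.66 ± 0.22 (adjusted p = 0.000183 and 0.000139, limma), and their interactions were -0.20 ± 0.44 and -0.28 ± 0.31, with adjusted p of 0.862 and 0.691. Anxa8, Mfap5 and Ccn1, which missed the test without KSR1, also fell with it, with log2 differences of -1.62 ± 0.39, -1.80 ± 0.37 and -1.33 ± 0.35 (adjusted p = 0.0114, 0.00395 and 0.0184, limma). Bmp4 and U90926 fell further with KSR1, with log2 differences of -4.15 ± 0.44 and -4.69 ± 0.35, and the interaction was called for both.

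Ccn5 reversed. It fell without KSR1 and rose by 1.76 ± 0.27 with it (adjusted p = 0.000485, limma), from a mean signal of 64.0 to 274, and the interaction was 4.60 ± 0.39 (adjusted p = 9.07e-06, limma). Fmod, at 17.7 in the KSR1 line and 9.88 in the line with both genes, was dim in both lines, and its interaction of 2.74 ± 0.66 was called (adjusted p = 0.021, limma). The KSR1 line was itself compared with the same GFP arrays, which the comparisons share, and its log2 differences were -4.31 for Ccn5, -4.59 for Fmod and -4.51 for Tagln, against -2.85, -3.04 and -1.63 for H-RasV12.

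Of the higher genes, Adam8, Itga6 and Col18a1 were called lower with KSR1. Adam8 fell by 2.96 ± 0.39 with KSR1 (interaction -4.88 ± 0.55, adjusted p = 0.000122, limma), from a mean of 486 in the KSR1 line to 43.5. Itga6 fell by 1.47 ± 0.32 and Col18a1, on 101881_g_at, by 2.72 ± 0.40, each with a called interaction. Crabp1 had a mean of 508 ± 624 (SD, n = 3) in the KSR1 line and 129 with both genes (-1.77 ± 0.76, adjusted p = 0.148, limma), and its interaction of -4.84 ± 1.08 was called (adjusted p = 0.0134). Lum had means of 77.5 and 53.5 in the lines with KSR1, so only the H-RasV12 line without KSR1, at 763, stood high. Its interaction was -2.55 ± 0.53 (adjusted p = 0.00916, limma). Lum passed the filter only through the arrays of that line, on which it was also chosen, so the interaction is no separate support.

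**Figure D5:**
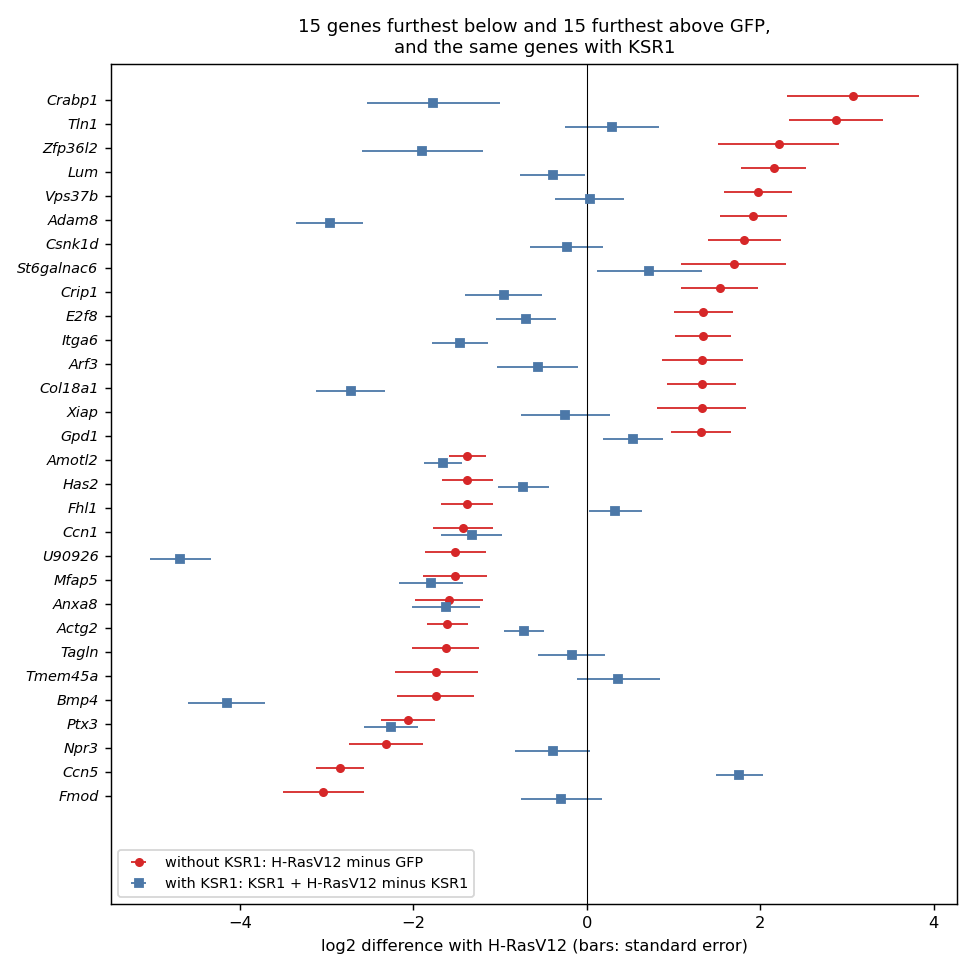
Log2 difference with H-RasV12 (horizontal) for the 15 genes furthest below and the 15 furthest above GFP, without KSR1 (red circles, H-RasV12 minus GFP) and with KSR1 (blue squares, KSR1 with H-RasV12 minus KSR1), with bars of 1 standard error from limma. The sign was shared in 12 of the 15 lower genes and in 4 of the 15 higher genes. Genes were chosen on the red values, so these are a description.

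Class medians are set side by side for the classes furthest from 0 in cells with KSR1. Chemokines, cytokines and prostaglandin enzymes had a median of -1.52 with KSR1 and -0.46 without, and the TGF-beta and BMP family -0.78 and -0.22. Oxidative phosphorylation had a median of 0.79 with KSR1 and -0.11 without, the citric acid cycle 0.89 and -0.02, fatty acid oxidation 0.80 and -0.13, hypoxia response genes 1.07 and -0.24, glycolysis 0.66 and -0.17, and lysosomal genes 0.63 and -0.05. Integrins and cadherins had -0.63 and -0.07. ERK targets and feedback regulators had a median of -0.73 with KSR1 and 0.05 without. One member, Dusp6, was lower by 2.37 ± 0.59 with KSR1 and higher by 0.85 ± 0.59 without. Its interaction was -3.21 ± 0.83 (adjusted p = 0.0288, limma). The arrays with both genes spread widely for Dusp6, at 228 ± 303, against 757 ± 65.5 in the KSR1 line (mean and SD, n = 3). These medians describe the lists and were not tested.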

How the data were processed

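The samples were hybridised to Affymetrix arrays with 12488 probe sets, of which 66 are controls, on 12 arrays in 4 groups of 3. The values deposited by the authors are linear intensity (signal) values from MAS5, per the submitters' processing notes, whose version is not given in the sources used here, and the 2% trimmed mean was 500.3 on each of the arrays used here. The precision of array values is limited by the number of arrays, 3 per line.

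Signals were raised by 23, their 20th percentile over all arrays, as a pseudocount and put on a log2 scale and fitted with limma 3.58.1 in R 4.3.3 (lmFit, eBayes with an intensity trend, 4 group means, 8 residual degrees of freedom). The trend lets the variance depend on brightness, and a pseudocount understates the differences of dim probe sets and also the scatter of their arrays. The 6897 tested probe sets passed 181.4 on at least 3 arrays, 5525 were below, and Benjamini-Hochberg adjustment ran over all tested. For gene classes each of 5288 genes had its brightest probe set. Gene symbols came from the platform annotation, with 10833 probe sets under 1 symbol, 396 under several and 1193 unnamed. Figures were drawn with Python 3.11.15 and matplotlib 3.10.9.

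The 36 gene classes, the marker lists and the members were chosen with earlier results of these data known. Genes named are Ksr1, the called probe sets, the 15 furthest from GFP in each direction without overlap, and in each class up to 4 genes without overlap, or the 2 brightest where there are none. Ccn2, Igfbp2, Cdh1, Ankrd1, Spry4, Phlda1, Egr1, Fos, Saa3, Lcn2, Cxcl5, Ifit1, Ifit3, Iigp1 and Isg15 were named after their values were seen. So were the markers Csf1r and Fcgr1. The code was tested on simulated data. Alternatives were the pseudocount, the filter, the normalization, the arrays in the fit, the intensity trend, a replicate block and leaving out each array.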

Additional observations from a re-analysis of the deposited data

Results flagged for a closer look

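The response to H-RasV12 differed between cells without and with KSR1 for 37 of the 121 named probe sets, by the limma interaction (difference with KSR1 minus difference without, log2), with adjusted p from 1.18e-06 to 0.0491. It was positive for 16 and negative for 21. Over all 6897 tested probe sets the interaction was called for 531 (7.7%). Most of the 121 were chosen on the GFP and H-RasV12 arrays, whose difference also enters the interaction. The larger share among them thus follows in part from the choice. The lines without KSR1 and those with it use different arrays.

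Matrix and adhesion genes had both signs. The interaction was 4.60 for Ccn5, 3.83 for Ccn4, 2.74 for Fmod, 2.06 for Col6a3, 1.78 for Ncam1 and 1.59 for Pcolce. It was -4.05 and -1.86 for 2 probe sets of Col18a1, -3.34 for Alcam, -2.80 for Itga6, -2.55 for Lum, -2.07 for Dcn, -1.43 for Cdh2 and -1.21 for Timp1. Ccn4 illustrates the first group, with log2 differences of -0.92 without KSR1 and 2.90 with it, and Alcam the second, with 0.87 and -2.46.

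Lipid and energy genes were positive. The interaction was 4.99 for Lpl, lipoprotein lipase, which was lower by 1.09 without KSR1 and higher by 3.90 with it. It was 2.04 for Ldhb, 1.85 for the lipid droplet protein Plin2, 1.61 for Hk2, 1.59 for Higd1a, 1.53 for Ndufs3, 1.12 for Cox7a2l, 1.08 for Hif1a and 0.94 for Etfa.

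Secreted factors and signalling genes were mostly negative. The interaction was -3.89 for Fst, -3.21 for Dusp6, -2.87 for the prostacyclin synthase Ptgis, -2.41 for Bmp4, -1.55 for Egr2, -1.01 for Btg1 and -3.17 for U90926. Among dim probe sets that were higher without KSR1 it was -4.88 for Adam8, -4.84 for Crabp1, -4.11 for Zfp36l2, -2.49 for Crip1 and -1.94 for Vps37b, and it was -2.05 for E2f8. Fhl1 was positive at 1.71.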

How the results depend on the processing

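The counts of calls were small and moved with single arrays. The 5 probe sets called lower in limma became 1 with only the 6 arrays of both lines, ranged from 1 to 20 when each array was left out in turn (20 without GFP replicate 1), and were 35 when only replicates 2 and 3 were kept, a setting added after the data were seen. The 0 called higher became 1 with a pseudocount of 100, 1 with no filter, 1 with a filter on all 3 arrays of a line, 1 with median centring, 1 with only the 6 arrays and 1 with no intensity trend. They ranged from 0 to 6 when each array was left out (6 without H-RasV12 replicate 1), and were 13 with replicates 2 and 3 alone. With the replicate number as a block, 7 were called lower and 3 higher, adding Npr3, Fstl1, Tln1, Lum and Crabp1. The labels do not say that a number marks a shared batch. Deviations of same-numbered GFP and H-RasV12 arrays correlated at -0.02, 0.00 and 0.19 (up to 0.51 over all 4 lines), and not every GFP array correlated best with its own number, so the numbers were not used as pairs, although the control signals were ordered alike by number in all 4 lines. The 531 called interactions ranged from 329 to 646 when each array was left out and were 741 with the block, and no interaction can be had from the 6 arrays alone. Probe sets without overlap, 361 lower and 464 higher, were 670 and 700 with no filter and 1162 and 1495 with replicates 2 and 3 alone, where fewer arrays make overlap rarer. They ranged from 354 to 741 lower and from 454 to 981 higher when each array was left out. Of 2579 values of the 121 named probe sets under alternatives, 0 reversed, 22 lost a call and 40 gained one. Most of the 121 were chosen for arrays without overlap, so leaving out an array could not reverse their sign. Only the 5 called probe sets could lose a call, so the 22 losses all fell on them. Of 944 class medians, 22 moved. The median interval of 0.51 to either side on the log2 scale limits what these arrays can resolve.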

Other observations

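Among the probe sets below the filter, 3 were called when no filter was used, and they were singled out after their values were seen. Cldn1, a tight junction claudin, read 4.45, 3.30 and 3.65 on the GFP arrays and 64.3, 78.9 and 48.0 on the H-RasV12 arrays, a log2 difference of 1.68 ± 0.15 with the pseudocount of 23 (adjusted p = 0.00049, limma). Its mean was 3.34 in the KSR1 line and 2.10 with KSR1 and H-RasV12, so the H-RasV12 line without KSR1 was the only one of the 4 with a signal above 4.45. Vdr, the vitamin D receptor, read 207, 188 and 157 on the GFP arrays and 38.1, 13.2 and 15.6 on the H-RasV12 arrays (-2.23 ± 0.23, adjusted p = 0.00139, limma), with means of 8.00 and 10.9 in the lines with KSR1. Smoc1, a secreted calcium-binding protein of the SPARC family, read 146, 146 and 220 and then 26.5, 52.6 and 24.9 (-1.76 ± 0.27, adjusted p = 0.0354, limma). None of the 3 passed the filter level of 181.4 on 3 arrays. Adding 23 to low signals also compresses their scatter, so the standard errors and adjusted p of these 3 may be too small.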
